A study of Homo sapiens with 30 samples.

Results

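The 45 genes described here act in the S phase of the cell cycle: they license and fire replication origins, copy the DNA, supply its deoxynucleotides and pack the new strands with histones. They were taken by gene symbol from 4 RNA-seq count tables of human prostate cancer cell lines, with the MCM helicase genes left out, and all 45 were present among the 57773 genes of each table. The rule uses symbols alone and no measured value, but the 45 genes were chosen with earlier results of these data known. VCaP cells, a line from a prostate cancer metastasis, had received 20 nM of an siRNA against RB1 for 2 days (siRB) or the same amount of a control siRNA (siNTC), with 3 libraries per group. C4-2-tet-shRB cells, a castration-resistant derivative of LNCaP in which doxycycline induces a hairpin against RB1, were given 0.05 µg/ml doxycycline for 3 days with DMSO, doxycycline with 10 µM GSK2879552 (which blocks LSD1, the histone demethylase encoded by KDM1A) for 24 hours, GSK2879552 alone or DMSO alone, with 2 libraries per group. In a further table the same cells had 0, 3 or 30 days of doxycycline and then 10 nM of the androgen dihydrotestosterone (DHT) for 24 hours or vehicle, with 1 library per group. LNCaP cells, an androgen-dependent line, were given 1 µM GSK2879552 for 2 days or vehicle, again with 1 library per group. No group of doxycycline-treated cells with a control hairpin was analysed here, so RB1 loss, hairpin induction and doxycycline itself cannot be told apart in C4-2-tet-shRB cells, and the labels do not say whether that line is 1 clone. The C4-2-tet-shRB and LNCaP media held charcoal-stripped serum, which is low in steroids, and the DHT experiment held some regular serum besides. The VCaP medium is labelled as holding regular serum, whereas the names of those libraries carry the abbreviation for stripped serum.

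RB1 encodes the retinoblastoma protein, which in its unphosphorylated form binds E2F transcription factors and holds their targets down until cyclin-dependent kinases release them late in G1. Many E2F targets are the replication genes considered here: ORC1, ORC6, CDC6 and CDT1 load the MCM helicase at origins, CDC7 with DBF4 and then CDC45 and GINS start it, polymerases alpha, delta and epsilon copy the strands behind it, and PCNA, loaded by the RFC complex, keeps the polymerases on the template. In prostate cancer RB1 is often lost as the disease becomes resistant to castration, and androgens are known both to drive the growth of prostate cancer cells and, in some settings, to lower DNA replication genes.

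Because E2F binding sites lie close to the start of many of these genes, their promoters were searched first. RefSeq gives a promoter on GRCh38.p14 for 39 of the 45, and GINS4, POLD3, RPA2, RPA3, WDR76 and FAM111B have no entry. Within 250 bases before the start, an E2F element spelled TTTCCCGC, TTTCGCGC, TTTGCCGC or TTTGGCGC on either strand was present in 9 of these 39 promoters (23.1%), compared with 761 of the 27305 promoters in the table (2.79%). The 9 genes were CDT1, GINS2, LIG1, PCNA, POLA1, POLA2, POLE, RFC3 and TYMS. A CCAAT box, the letters CCAAT on either strand, was present in 21 of the 39 (53.8%), compared with 33.0% of all promoters, and TTTGAA, the core of the cell cycle homology region of G2/M genes, in 2 of the 39 (5.13%), compared with 13.6%. The median GC content of the same windows was 66.8% in the 39 and 58% in all promoters, and its part in these shares was not tested. The last 100 bases before the start are shown for 6 of the 9, chosen because they span the roles of clamp, thymidylate synthesis, licensing, helicase, polymerase alpha and clamp loader. The sequences run 5′ to 3′ on the strand of the gene and end at the base before the start, with the E2F element in capitals (on the opposite strand it reads as the reverse complement).
PCNA: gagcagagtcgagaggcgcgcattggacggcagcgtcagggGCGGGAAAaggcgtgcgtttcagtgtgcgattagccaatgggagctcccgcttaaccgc
TYMS: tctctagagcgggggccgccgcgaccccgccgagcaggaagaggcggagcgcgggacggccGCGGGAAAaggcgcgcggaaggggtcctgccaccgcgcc
CDT1: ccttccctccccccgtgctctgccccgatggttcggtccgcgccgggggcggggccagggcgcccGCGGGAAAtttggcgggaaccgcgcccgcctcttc
GINS2: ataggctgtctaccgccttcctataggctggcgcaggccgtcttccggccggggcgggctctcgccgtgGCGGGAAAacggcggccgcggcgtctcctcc
POLA2: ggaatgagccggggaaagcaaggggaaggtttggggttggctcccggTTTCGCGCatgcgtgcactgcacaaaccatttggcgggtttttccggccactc
RFC3: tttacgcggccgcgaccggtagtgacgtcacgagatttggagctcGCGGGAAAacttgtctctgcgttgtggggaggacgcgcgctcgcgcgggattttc
These windows lie at chr20:5126623-5126722 (- strand, PCNA), chr18:657553-657652 (+ strand, TYMS), chr16:88803689-88803788 (+ strand, CDT1), chr16:85688955-85689054 (- strand, GINS2), chr11:65261862-65261961 (+ strand, POLA2) and chr13:33818049-33818148 (+ strand, RFC3) of GRCh38.p14. The element is a match of letters and was not tested as a binding site here. The same element was present in 4 of the 14 promoters of genes called in 2 or 3 of the RB1 comparisons below (28.6%) and in 5 of the 25 called in 0 or 1 (20%). These shares depend on the window. With 50 bases after the start included, 14 of the 39 promoters (35.9%) held the element, compared with 3.33% of all promoters. Within the 250 bases, 4 of 49 promoters (8.16%) of the wider list of replication genes described below held it.

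Depth was 4311455 to 7107036 counted reads per library in VCaP cells, 14515932 to 22326960 in the C4-2-tet-shRB table with GSK2879552, 14898454 to 16856486 in that with DHT, and 13085157 with GSK2879552 and 14036346 with vehicle in LNCaP cells. Levels are given as CPM, the reads of a gene relative to its library's total, scaled between libraries by edgeR's TMM method, and differences as log2 fold changes with their SE. Luminal prostate markers such as HOXB13 and KRT8 were present in all 4 tables. The basal keratin KRT5 was listed at 0 in all of them, but KRT14, another basal keratin, stood at 5.34 to 7.73 CPM in VCaP cells. Some fibroblast markers were present too, such as LUM at 5.95 to 9.06 CPM in VCaP cells and COL1A1 at 35.4 to 50.8 CPM in the table with GSK2879552. Calls rest on edgeR's quasi-likelihood test and an adjusted p (Benjamini-Hochberg) below 0.05 over all genes tested, 14066 in VCaP cells, 18423 with GSK2879552 and 17300 with DHT, and all 45 genes passed the low-count filter in each fit. Whether replicates came from separate cultures is not labelled, so p-values in VCaP cells and with GSK2879552 measure the spread between these libraries. The chi-square ratio, which sets the difference of 2 libraries against sampling noise, was 1.13 to 1.39 between VCaP replicates. It was 1.61 to 7.88 between replicates with GSK2879552, and 0.983 to 1.01 between lanes of 1 library in the other tables. VCaP replicates thus differed little beyond sampling noise. In the table with DHT no group has a replicate. Its fit adds the DHT and doxycycline effects and leaves 2 residual degrees of freedom. Its p-values thus rest on departures from that sum and on a spread borrowed from all genes. A DHT effect that differs with doxycycline enters those departures. Where groups are said below not to overlap, the genes were mostly named for a call or a small p, which favours such a gap. The share of all genes without overlap was not computed, so a gap is a description and no further support.

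RB1 itself was depleted in every library labelled so. It stood at 5.35, 6.74 and 7.41 CPM in the siRB libraries, against 56.5, 59.96 and 63.9 CPM in the siNTC libraries, and fell by 3.22 ± 0.12 on the log2 scale, which left 10.8% of the control level. In C4-2-tet-shRB cells it stood at 4.64 and 6.24 CPM with doxycycline and DMSO, against 23.4 and 26.1 CPM with DMSO alone. With 0, 3 and 30 days of doxycycline it stood at 51.1, 10.04 and 6.25 CPM with DHT and at 48.1, 7.82 and 6.27 CPM with vehicle. E2F1, which encodes an activating E2F factor, rose by 0.41 ± 0.06 in VCaP cells, 0.42 ± 0.08 with doxycycline and DMSO and 0.52 ± 0.08 after 30 days, and KDM1A had no call in any of these comparisons.

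Levels of the 45 genes differed widely once divided by exon length. With lengths from GENCODE 29, which may differ from the annotation the authors counted on, PCNA was the highest in VCaP cells at 126 CPM per kilobase and in the C4-2-tet-shRB table with DHT at 168 CPM per kilobase. TK1 was the highest in the table with GSK2879552 at 131 CPM per kilobase, and POLD2 in LNCaP cells at 65.0 CPM per kilobase. The median over the 45 was 11.2, 10.98, 18.95 and 3.97 CPM per kilobase in the VCaP table, the C4-2-tet-shRB tables with GSK2879552 and with DHT, and the LNCaP table. Tables were made with different kits and normalized separately, so their levels were not compared further. In LNCaP cells DBF4, POLE2 and CLSPN had under 100 counts over both libraries.

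Depletion of RB1 in VCaP cells was followed by a modest rise of the replication genes. Of the 45, 14 rose and 0 fell, while 2.96% of all genes tested rose and 2.65% fell. The median log2 fold change was 0.17 over the 45, with 42 positive, and -0.00 over all genes tested. Summed over the 45 genes, the level was 3359, 3318 and 3319 CPM in the siRB libraries, against 3010, 2929 and 3010 CPM in the siNTC libraries. Such bulk values cannot tell apart more cells in S phase and more RNA of these genes per cell. The 14 were CDC6, CDC45, PCNA, RFC2, PRIM1, POLA2, FEN1, RPA1, TK1, RRM2, CHAF1B, ASF1B, WDR76 and FAM111B, so every role but fork protection held at least 1 called gene. The largest of these rises was that of WDR76 (log2 0.43 ± 0.10, adjusted p = 0.00148), and the smallest p that of TK1 (log2 0.39 ± 0.05, adjusted p = 2.72e-08). POLE2 stood higher still at log2 0.50 ± 0.18 without a call (adjusted p = 0.0822). The siRB libraries were deeper (6218938 to 7107036 reads) than the siNTC libraries (4311455 to 4551211) and held less mitochondrial protein-coding RNA (2.09 to 2.21% against 2.44 to 2.58% of counts), and the part of either in the result was not tested. DESeq2 called 8 of the 14, and 8 were called however 1 library was left out: CDC45, PCNA, RFC2, PRIM1, FEN1, TK1, RRM2 and WDR76. Leaving out siNTC replicate 1, siNTC replicate 2 or siRB replicate 2 gave 8, 9 and 9 calls, with CDC6, RPA1, CHAF1B and FAM111B lost each time. Over all genes these 3 fits gave 560, 524 and 530 calls, against 790 with every library.

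Induction of the RB1 hairpin in C4-2-tet-shRB cells was likewise followed by rises and no falls among the 45. With doxycycline and DMSO, 15 of the 45 genes rose and 0 fell against DMSO alone, where 4.25% of all genes tested rose and 3.59% fell. The median was 0.22 over the 45 and -0.00 over all genes. Their summed level was 3219 and 3241 CPM with doxycycline, against 2821 and 2784 CPM with DMSO alone. In the table with DHT, where DHT was a term of the fit, 11 rose after 3 days (0.272% of all genes) and 28 after 30 days (2.51% of all genes), and 0 fell at either time (0.197% and 1.52% of all genes); both are set against the same libraries without doxycycline. The medians were 0.30 and 0.32, and all 45 differences were positive at both times, as were 8559 and 8590 of all 17300 genes. These differences join the libraries with DHT and with vehicle, and not every gene was higher with vehicle alone, as given below. No gene of the 45 was called between 30 and 3 days, where 0.254% of all genes rose and 0.0694% fell. Unadjusted p-values under 0.05 (edgeR) were found for 2 positive and 0 negative differences, against 719 and 588 of all 17300 genes. DESeq2 called 0 of the 45, and the lowest adjusted p by edgeR was 0.282, that of PRIM1. PRIM1 (log2 0.27 ± 0.09) was called when either library without doxycycline was left out.

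These counts depended on single libraries more than their direction did. In each alternative fit named here the number of calls over all genes moved in the same direction as that of the 45. With DMSO, between 5 and 7 genes were called when either doxycycline library or either library with DMSO alone was left out, and CDC6, TYMS and CHAF1B were called each time. The libraries with doxycycline and DMSO were also deeper (20464130 and 22326960 reads) than those with DMSO alone (14515932 and 15736773), and held 4.41% and 4.40% mitochondrial protein-coding RNA, against 2.72% and 3.58%; the part of both in the result was not tested. After 3 days 0 genes were called without the library with 3 days of doxycycline and DHT, 6 without that with DHT alone and 35 without that with vehicle alone. It was 18 without that with 3 days and vehicle, and 24 without either library with 30 days. After 30 days the count was 12 without the library with 30 days of doxycycline and DHT, 17 without that with 30 days and vehicle and 15 without that with DHT alone, and DESeq2 called 5 after 3 days and 8 after 30 days. The 10 genes called after 30 days whichever library was left out were CDT1, CDC7, PCNA, PRIM1, FEN1, CHAF1A, CHAF1B, ASF1B, WDR76 and FAM111B. DESeq2 called 8 of these 10, all but CHAF1A and CHAF1B, and none of the other 18 below. The other 18 calls after 30 days each ended without at least 1 library, and so did all 11 calls after 3 days. All 45 genes are set out by comparison in the map of fold changes.

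**Figure D1:**
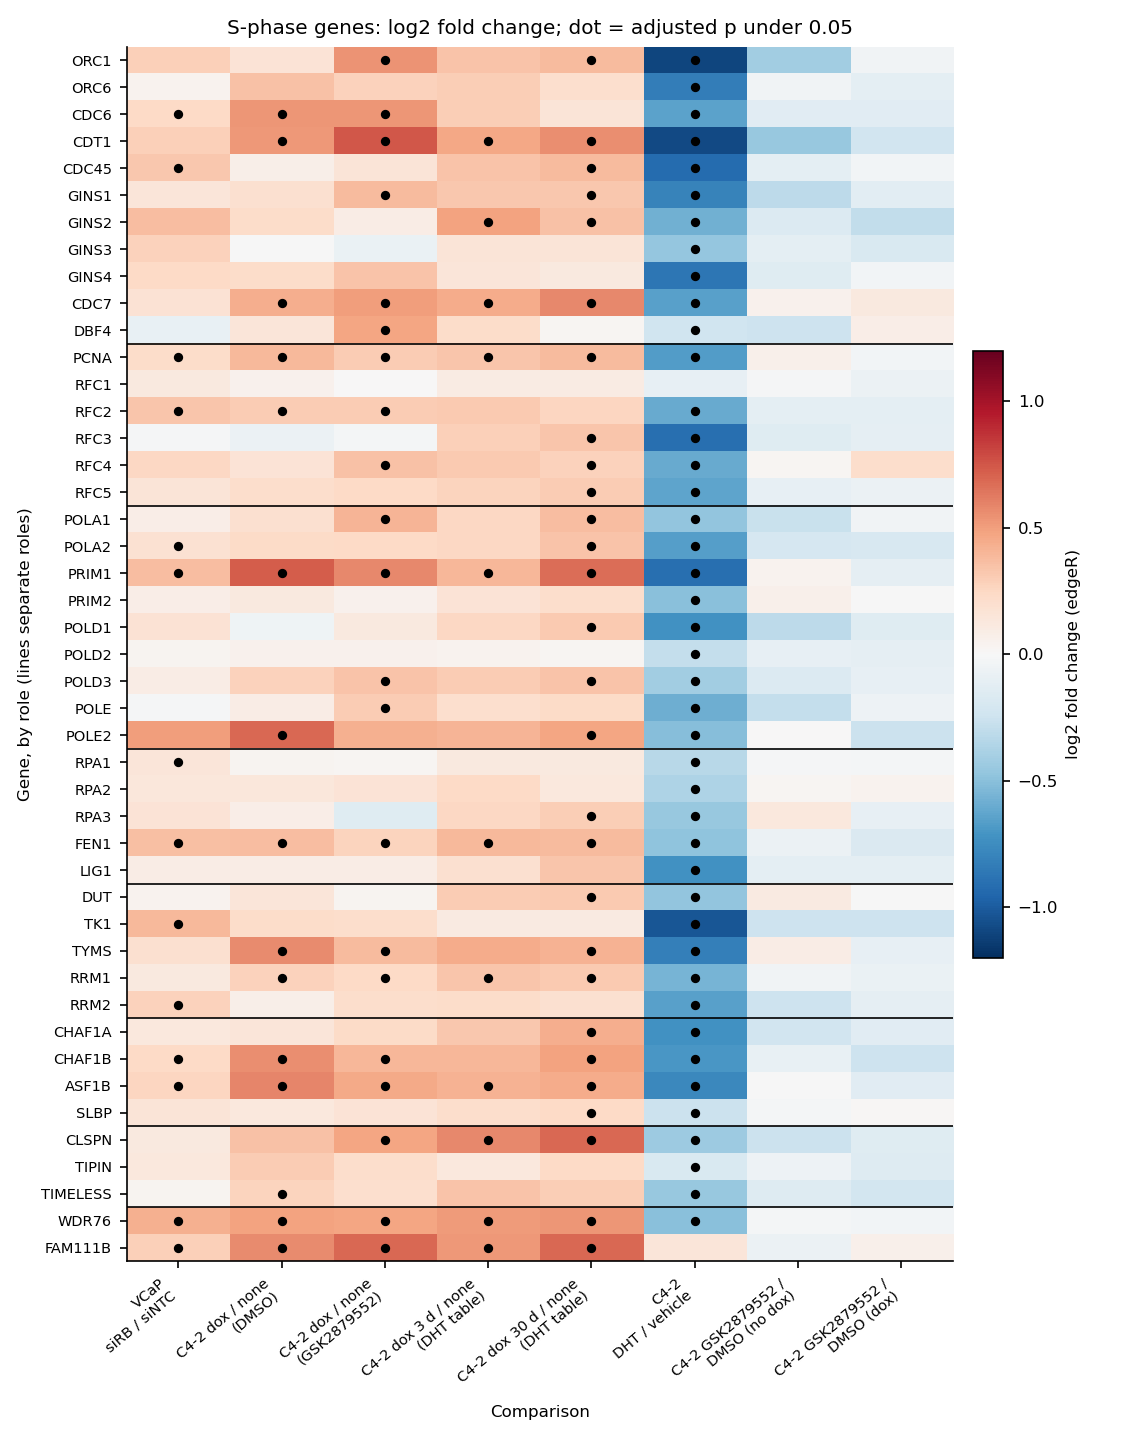
Log2 fold changes of the 45 genes (rows, grouped by role) in 8 comparisons (columns), each the first-named condition over the second, from edgeR; red is higher, blue is lower, and a black dot marks an adjusted p under 0.05. The 5 columns of RB1 depletion are mostly red, with 14, 15, 21, 11 and 28 dots, the DHT column is blue in all rows but FAM111B, and the 2 columns of GSK2879552 hold no dot.

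Across the VCaP siRNA, the C4-2-tet-shRB cells with DMSO and those after 30 days, which share no library, 7 genes were called as rising all 3 times: PCNA, PRIM1, FEN1, CHAF1B, ASF1B, WDR76 and FAM111B. Another 9 were called in 2 of the 3, 18 in 1, and 11 in none. The 11 were ORC6, GINS3, GINS4, DBF4, RFC1, PRIM2, POLD2, POLE, RPA2, LIG1 and TIPIN. In the 3 comparisons 2.96%, 4.25% and 2.51% of all genes rose, and the share of all genes called in more than 1 of them was not computed. DESeq2 did not call CHAF1B, ASF1B and FAM111B in VCaP cells, nor CHAF1B after 30 days.

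**Figure D2:**
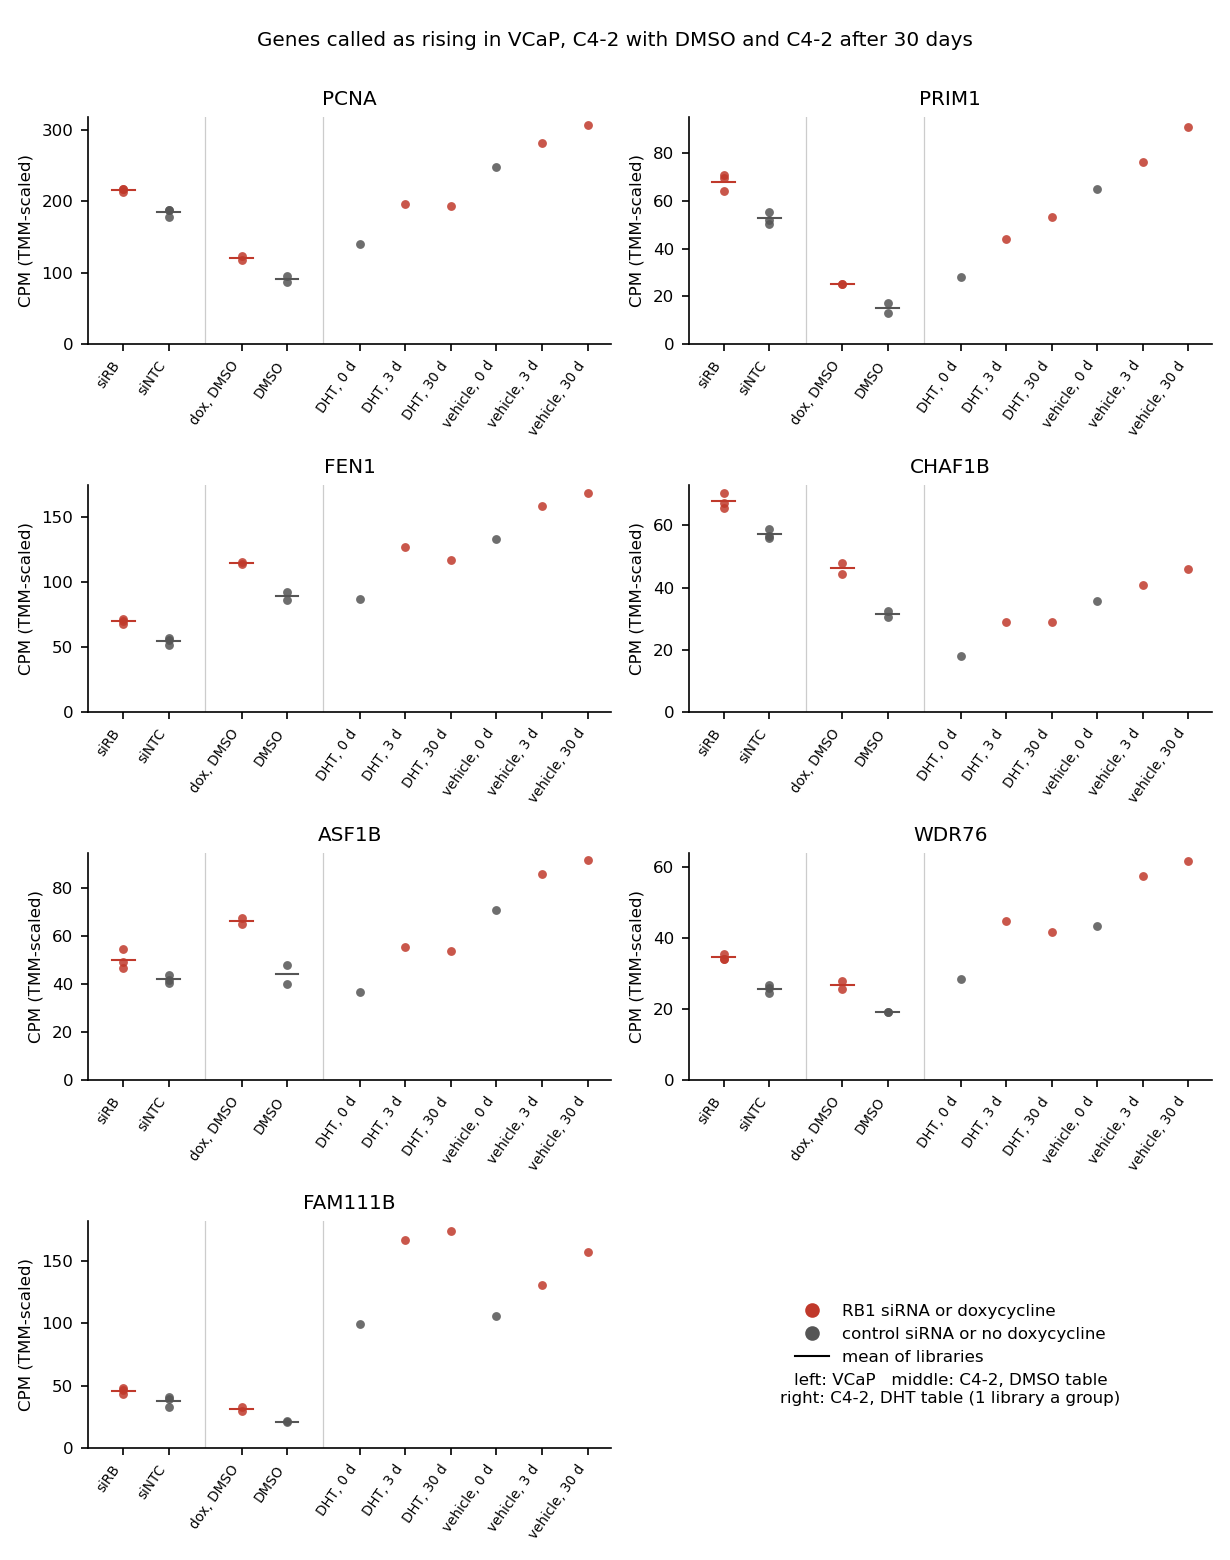
Levels (CPM, linear axis from 0) of the 7 genes called in all 3 comparisons, 1 point per library with the mean as a line where there are replicates; red marks RB1 siRNA or doxycycline, grey control siRNA or no doxycycline. The red points of VCaP cells and of the DMSO table lie above the grey ones for each gene, and in the DHT table the points with 3 and 30 days of doxycycline lie above that with 0 days within DHT and within vehicle.

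Among the 11 genes of origin licensing and firing, CDC6 and CDT1, which together load the MCM helicase, had the smallest p of the role in C4-2-tet-shRB cells under GSK2879552, and both rose with DMSO. CDC6 stood at 75.5 and 76.5 CPM with doxycycline and DMSO, against 53.2 and 52.4 CPM with DMSO alone (log2 0.53 ± 0.08, adjusted p = 0.000507 by edgeR). CDT1 stood at 67.05 and 64.4 CPM with doxycycline and DMSO, against 49.2 and 42.3 CPM with DMSO alone (log2 0.52 ± 0.10, adjusted p = 0.00334, not called without DMSO replicate 2 or without doxycycline replicate 1). Neither gene's groups overlapped. After 30 days CDC6 had no call (log2 0.15 ± 0.08), while CDT1 rose by 0.56 ± 0.08. In VCaP cells CDT1 had no call (log2 0.28). CDC7, the kinase that triggers firing, rose in both C4-2-tet-shRB tables, by 0.43 ± 0.09 with DMSO, a call lost when any 1 of the 4 libraries compared was left out, and by 0.57 ± 0.08 after 30 days. Its activating partner DBF4 had no call at log2 0.15 ± 0.14 and 0.02 ± 0.11, and the pseudogene DBF4P1, which could share its reads, held 19.6 to 31.7% as many counts as DBF4 in the 4 tables. In VCaP cells CDC45 and CDC6 were the 2 called genes of this role. CDC45, which joins the MCM ring to form the active helicase, stood at 64.3, 66.1 and 65.6 CPM in the siRB libraries, against 49.4, 51.1 and 55.7 CPM in the siNTC libraries (log2 0.33 ± 0.07, adjusted p = 0.00103), and CDC6 at 69.7, 71.8 and 68.3 CPM in the siRB libraries, against 60.4, 56.5 and 61.2 CPM in the siNTC libraries (log2 0.24 ± 0.07, adjusted p = 0.0209, not called by DESeq2). The siRB libraries were above the siNTC libraries for both. ORC1, the largest subunit of the origin recognition complex, rose by 0.38 ± 0.09 after 30 days and had no call in VCaP cells or with DMSO, and ORC6 had none in these 3 comparisons. Of the GINS helicase subunits, GINS1 and GINS2 rose after 30 days (log2 0.32 ± 0.08 and 0.35 ± 0.09), while GINS3 and GINS4 stood at 0.15 ± 0.09 and 0.12 ± 0.09; an antisense gene covers 21.2% of the exons of GINS4, and whether reads were counted by strand is not given in the sources used here.

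PCNA, the sliding clamp, rose in each comparison of RB1 depletion. It stood at 217, 217 and 213 CPM in the siRB libraries, against 187, 188 and 179 CPM in the siNTC libraries (log2 0.22 ± 0.04, adjusted p = 7.42e-05). In C4-2-tet-shRB cells it stood at 117 and 123 CPM with doxycycline and DMSO, against 87.3 and 95.8 CPM with DMSO alone (log2 0.39 ± 0.08, adjusted p = 0.00414), a call that ended without DMSO replicate 1 or doxycycline replicate 2. With 0, 3 and 30 days of doxycycline it stood at 139.9, 197 and 193 CPM with DHT and at 248, 282 and 307 CPM with vehicle, which gave 0.38 ± 0.07 after 30 days (adjusted p = 0.00153). The groups did not overlap in the VCaP table or with DMSO, and the libraries with 3 and 30 days were above that with 0 days at either hormone state. The clamp loader moved less evenly. RFC2 rose in VCaP cells (0.33 ± 0.07) and with DMSO (0.31 ± 0.07), the second of these calls lost when any 1 of the 4 libraries compared was left out. After 30 days RFC2 had no call (0.26 ± 0.08, adjusted p = 0.0547 by edgeR). RFC3, RFC4 and RFC5 had no call in VCaP cells or with DMSO. They rose after 30 days, by 0.33 ± 0.07, 0.27 ± 0.07 and 0.31 ± 0.08, and DESeq2 called none of them there. RFC1, the large subunit, which replication shares with repair, had no call and stood between 0.05 and 0.12 in these 3 comparisons. RFC3 stood at -0.02 ± 0.09 in VCaP cells and -0.07 ± 0.09 with DMSO although its promoter holds the E2F element.

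PRIM1, the catalytic subunit of primase, which lays the RNA primer of each new strand, had the largest rise of the polymerase and primase genes in C4-2-tet-shRB cells. It stood at 25.2 and 25.1 CPM with doxycycline and DMSO, against 13.1 and 17.2 CPM with DMSO alone (log2 0.73 ± 0.13, adjusted p = 0.00326; not called without DMSO replicate 1). In VCaP cells it stood at 70.6, 69.6 and 63.9 CPM in the siRB libraries, against 50.3, 52.1 and 55.5 CPM in the siNTC libraries (log2 0.37 ± 0.07, adjusted p = 0.000113), and after 30 days it rose by 0.67 ± 0.09. The groups did not overlap in either of the first 2 tables. Its regulatory partner PRIM2 had no call in the 3 comparisons, at 0.08 ± 0.13, 0.12 ± 0.11 and 0.21 ± 0.09. Of the polymerase alpha subunits that form a complex with primase, POLA2 rose in VCaP cells (0.18 ± 0.06, not called by DESeq2 and called in 1 of the 6 fits that left out a library), and both POLA1 and POLA2 rose after 30 days (0.37 ± 0.08 and 0.35 ± 0.09); 35.1% of the exon bases of POLA2 overlap another annotated gene on the same strand. POLE2, an accessory subunit of the leading-strand polymerase epsilon, stood at 9.48 and 8.65 CPM with doxycycline and DMSO, against 4.62 and 6.55 CPM with DMSO alone (log2 0.69 ± 0.19). Its call was lost when any 1 of those 4 libraries was left out. The catalytic subunit POLE had no call, at -0.02 ± 0.05, 0.09 ± 0.08 and 0.23 ± 0.08. Among the subunits of polymerase delta, which copies the lagging strand, POLD1 and POLD3 rose after 30 days (0.32 ± 0.08 and 0.35 ± 0.09), and the abundant POLD2 stood at 0.04 ± 0.03, 0.05 ± 0.06 and 0.02 ± 0.06.

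FEN1, the flap endonuclease that trims Okazaki fragments, was the only gene of single-strand binding and lagging-strand processing called in all 3 comparisons. Its level was 71.6, 67.7 and 70.2 CPM in the siRB libraries, against 55.1, 56.7 and 51.3 CPM in the siNTC libraries (log2 0.36 ± 0.07, adjusted p = 0.000117). With the hairpin it was 115 and 114 CPM with doxycycline and DMSO, against 92.1 and 85.98 CPM with DMSO alone (log2 0.37 ± 0.07, adjusted p = 0.00357; not called without DMSO replicate 2 or either doxycycline library), and after 30 days it rose by 0.38 ± 0.07. Neither pair of groups overlapped. LIG1, the ligase that joins the trimmed fragments, had no call at 0.09 ± 0.07, 0.09 ± 0.10 and 0.33 ± 0.10. Of the subunits of RPA, which coats single-stranded DNA, RPA1 rose by 0.15 ± 0.04 in VCaP cells and RPA3 by 0.30 ± 0.08 after 30 days. DESeq2 called neither, and RPA2 had no call in the 3 comparisons.

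Of the 5 nucleotide synthesis genes, TK1 and RRM2 rose in VCaP cells, and TYMS and RRM1 with doxycycline and DMSO. In VCaP cells TK1, which salvages thymidine, stood at 148, 140.1 and 133 CPM in the siRB libraries, against 105, 104 and 114 CPM in the siNTC libraries (adjusted p = 2.72e-08), and RRM2, the S-phase subunit of ribonucleotide reductase, at 139.7, 143 and 137 CPM in the siRB libraries, against 116, 112 and 118 CPM in the siNTC libraries (log2 0.28 ± 0.05, adjusted p = 3.42e-05). The groups did not overlap for either gene. In C4-2-tet-shRB cells these 2 genes stood at 0.22 ± 0.08 and 0.07 ± 0.07 with DMSO and 0.11 ± 0.09 and 0.19 ± 0.08 after 30 days, with no call. That depended on the libraries used: without the library with vehicle and no doxycycline, TK1 (0.38) and RRM2 (0.36) were called as rising after 30 days. With DMSO TK1 (0.22) was called from the 4 libraries alone, with no low-count filter, and without either library given GSK2879552 alone. TYMS is the thymidylate synthase that makes dTMP anew, and RRM1 the large reductase subunit. TYMS stood at 55.1 and 60.6 CPM with doxycycline and DMSO, against 38.8 and 39.3 CPM with DMSO alone (log2 0.57 ± 0.08, adjusted p = 0.000627), and RRM1 at 202 and 202 CPM with doxycycline and DMSO, against 162 and 173 CPM with DMSO alone (log2 0.27 ± 0.07, adjusted p = 0.0242; lost when any 1 of these 4 libraries was left out). After 30 days TYMS (0.41 ± 0.12) and RRM1 (0.32 ± 0.08) rose as well. Both of these calls were lost by DESeq2, with a DHT by doxycycline term, and without the library with DHT alone or that with 30 days and DHT. That of TYMS, at 0.25 to 0.69 with a library left out, was also lost without the library with 30 days and vehicle, with RLE scaling, with a minimum of 10 counts and from either lane. The difference between the lines was not tested. ENOSF1 overlaps 39.1% of the exon bases of TYMS on the opposite strand, and a further annotated gene overlaps 20.2% of those of RRM2 on the same strand, so their counts may hold reads of these genes. DUT, which clears dUTP, rose by 0.32 ± 0.07 after 30 days and had no call in the other 2 comparisons.

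CHAF1B and ASF1B, which hand new histones to replicated DNA, were called in all 3 comparisons. ASF1B stood at 67.4 and 64.9 CPM with doxycycline and DMSO, against 40.1 and 47.8 CPM with DMSO alone (log2 0.59 ± 0.09, adjusted p = 0.00107; not called without DMSO replicate 1). In VCaP cells it stood at 49.2, 46.5 and 54.4 CPM in the siRB libraries, against 40.5, 41.6 and 43.8 CPM in the siNTC libraries (log2 0.25 ± 0.08, adjusted p = 0.0476), which DESeq2 did not call and which held in 1 of the 6 fits with a library left out. CHAF1B, a subunit of chromatin assembly factor 1, stood at 44.5 and 48.02 CPM with doxycycline and DMSO, against 30.4 and 32.5 CPM with DMSO alone (log2 0.55 ± 0.09, adjusted p = 0.00109). The doxycycline libraries were above those with DMSO alone for both. CHAF1B rose by 0.24 ± 0.07 in VCaP cells (not called by DESeq2, nor without siNTC replicate 1, siNTC replicate 2 or siRB replicate 2). After 30 days CHAF1B rose by 0.49 ± 0.10, again not called by DESeq2. CHAF1A, the large subunit of the same factor, and SLBP, which binds the stem-loop of histone mRNA, rose after 30 days (0.44 ± 0.09 and 0.24 ± 0.07) and had no call in the other 2 comparisons. DESeq2 called neither, and the call of SLBP held in 1 of the 6 fits with a library left out and was lost with RLE scaling, with no low-count filter and from lane 1 alone.

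Of the genes that protect stalled forks, CLSPN, which activates the checkpoint kinase CHK1, rose by 0.58 ± 0.13 after 3 days and 0.69 ± 0.13 after 30 days. It stood at 8.96, 17.1 and 15.01 CPM with DHT and at 14.5, 17.9 and 22.8 CPM with vehicle after 0, 3 and 30 days. Its levels are among the lowest of the 45. The call after 3 days was lost by DESeq2, with RLE scaling, with a minimum of 10 counts, with a DHT by doxycycline term and from either lane. It was also lost without the library with DHT alone or that with 3 days and DHT, and the value was 0.32 to 0.90 with a library left out. The call after 30 days was lost by DESeq2 and without the library with 30 days and vehicle. TIMELESS rose with DMSO (0.26 ± 0.07; lost when any 1 of the 4 libraries compared was left out), and its partner TIPIN had no call in the 3. WDR76, a chromatin protein, and FAM111B, a protease, had rises above the median of the 45 in each table. WDR76 stood at 35.6, 34.00 and 33.99 CPM in the siRB libraries, against 26.8, 25.8 and 24.5 CPM in the siNTC libraries. It stood at 25.6 and 27.8 CPM with doxycycline and DMSO, against 19.1 and 19.1 CPM with DMSO alone (log2 0.48 ± 0.10, adjusted p = 0.00698; not called without either library with DMSO alone or doxycycline replicate 2). FAM111B stood at 29.8 and 32.8 CPM with doxycycline and DMSO, against 21.4 and 20.9 CPM with DMSO alone (log2 0.56 ± 0.14, adjusted p = 0.0187; lost when any 1 of these 4 libraries was left out). For both genes the doxycycline libraries were above those with DMSO alone. FAM111B rose by 0.69 ± 0.08 after 30 days and by 0.28 ± 0.09 in VCaP cells, the second of these not called by DESeq2.

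DHT lowered nearly the whole set in C4-2-tet-shRB cells, in a fit without replicates. Of the 45 genes 43 fell and 0 rose, while 22.8% of all genes tested fell and 24.3% rose. The median was -0.60 over the 45, compared with -0.02 over all genes. Their summed level after 0, 3 and 30 days of doxycycline was 2399, 3183 and 3121 CPM with DHT, against 3871, 4306 and 4484 CPM with vehicle. Falls were called in every role: all 11 genes of origin licensing and firing (median -0.80), 5 of the 6 clamp and loader genes (-0.62), all 9 polymerase and primase genes (-0.51), all 5 of single-strand binding and lagging-strand processing (-0.45), all 5 of nucleotide synthesis (-0.65), all 4 histone chaperone and histone mRNA genes (-0.71) and all 3 fork protection genes (-0.43). RFC1 (log2 -0.10 ± 0.05, adjusted p = 0.132) and FAM111B (log2 0.14 ± 0.06, adjusted p = 0.0652) were the 2 without a call. The number that fell was 41 to 43 in every alternative fit, and the calls that any of these lost were those of DBF4, TIPIN and CLSPN. FAM111B was called as rising when either library without doxycycline was left out (log2 0.25 in both), and from lane 1 alone. TMM scaling factors were 0.921 to 0.956 with DHT and 1.06 to 1.07 with vehicle, and with the RLE scaling 42 of the 45 fell.

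The deepest falls were in licensing and thymidine salvage. ORC1 stood at 17.3, 26.02 and 26.7 CPM with DHT after 0, 3 and 30 days, against 45.01, 51.3 and 53.05 CPM with vehicle (log2 -1.10 ± 0.08, adjusted p = 2.45e-12). CDT1 stood at 26.9, 42.3 and 41.6 CPM with DHT, against 63.2, 79.9 and 90.7 CPM with vehicle (log2 -1.08 ± 0.07, adjusted p = 1.63e-13). TK1 stood at 82.9, 107 and 109 CPM with DHT, against 212, 198 and 194 CPM with vehicle (log2 -1.02 ± 0.07, adjusted p = 1.68e-12). For these 3 genes the highest library with DHT was below the lowest with vehicle. They were the 3 genes with a log2 fold change of -1 or below. Other members with small p were the clamp loader gene RFC3 (-0.90 ± 0.06), PRIM1 (-0.91 ± 0.07), POLD1 (-0.73 ± 0.07), ASF1B (-0.78 ± 0.06), CHAF1A (-0.73 ± 0.07), LIG1 (-0.73 ± 0.08) and RRM2 (-0.65 ± 0.06). The shallowest called falls were those of TIPIN (-0.18 ± 0.08, adjusted p = 0.0488), DBF4 (-0.24 ± 0.09), SLBP (-0.26 ± 0.06) and POLD2 (-0.29 ± 0.05). FAM111B stood apart, with 99.4, 166 and 174 CPM with DHT and 106, 130.3 and 157 CPM with vehicle, and was higher with DHT at 3 and 30 days.

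The size of the DHT effect was set out at each doxycycline level from single libraries, where intervals cover counting error only and there is no replicate check. Without doxycycline 34 of the 45 genes were lower with DHT by over 1.5-fold, compared with 10.2% of all genes whose 2 libraries held 100 counts or more. After 3 days of doxycycline 13 were (7.23% of all genes) and after 30 days 21 (7.21% of all genes). DHT over vehicle had a median log2 ratio of -0.76 at 0 days, -0.47 at 3 days and -0.57 at 30 days. The log2 ratio was -0.83, -0.52 and -0.67 for PCNA, -1.38, -0.98 and -0.99 for ORC1, and -0.81, -0.39 and -0.48 for RRM1. POLD1 had -0.65, -0.62 and -0.91, the lowest of them at 30 days.

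**Figure D3:**
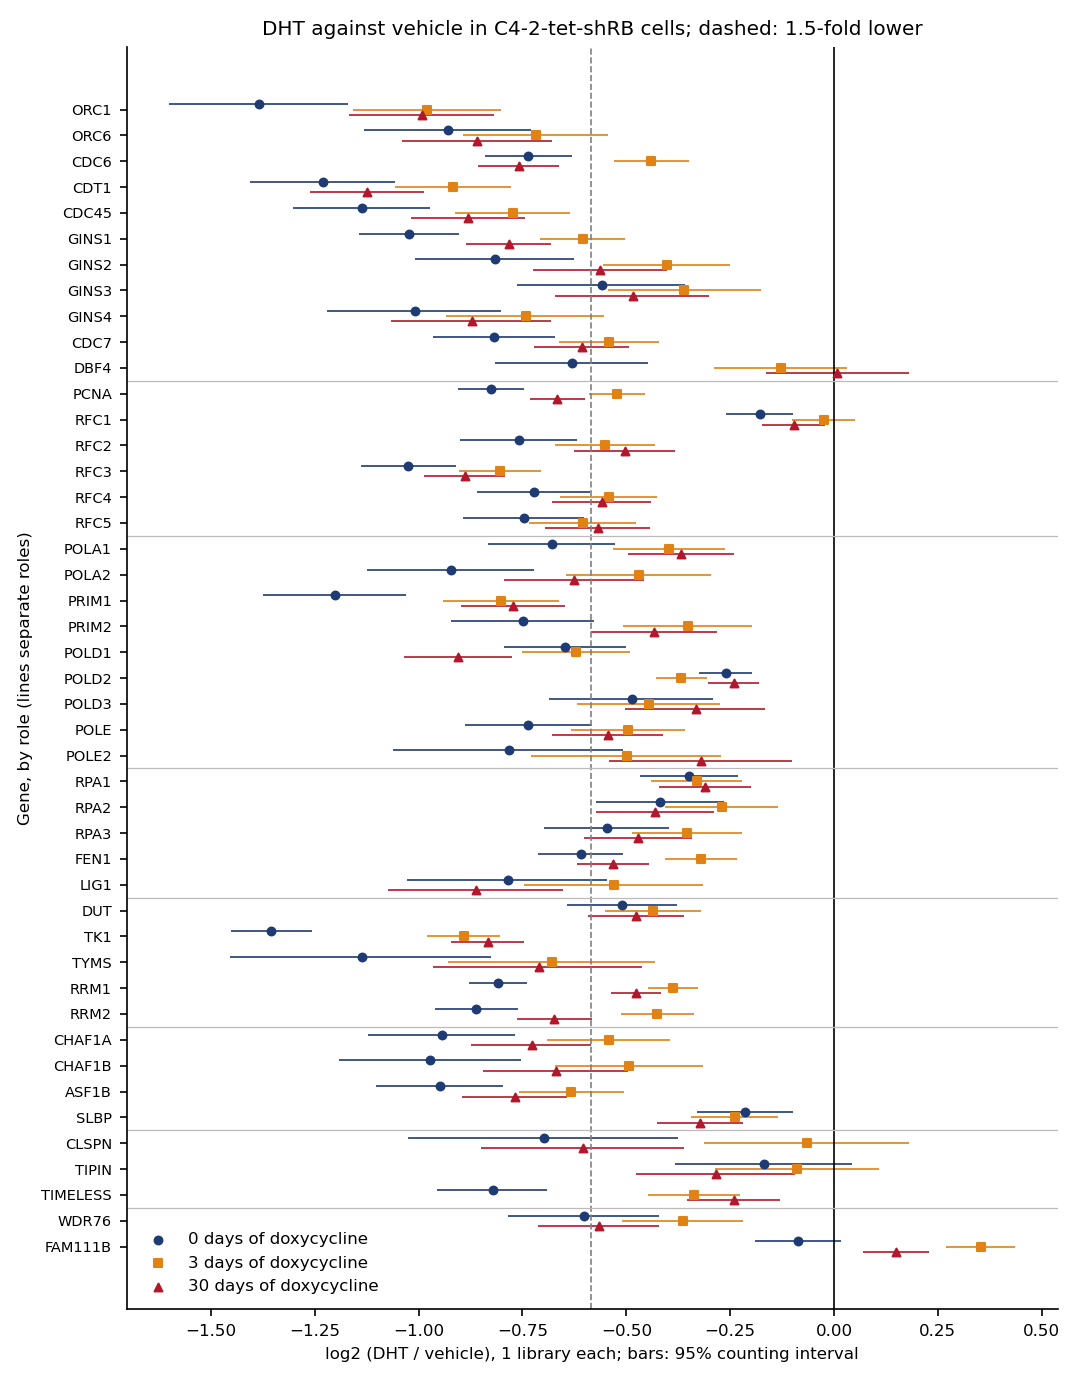
Log2 ratio of DHT to vehicle (x axis) for each of the 45 genes (rows, grouped by role) after 0, 3 and 30 days of doxycycline, with 95% intervals for counting error, 1 library each. Of the blue circles (0 days), orange squares (3 days) and red triangles (30 days), 34, 13 and 21 lie left of the dashed line at 1.5-fold lower.

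The same 6 libraries can be read along doxycycline. With DHT, 12 genes were higher by over 1.5-fold after 3 days than without doxycycline (1.76% of all genes) and 10 after 30 days (2.57% of all genes). With vehicle the counts were 0 after 3 days (0.451% of all genes) and 1 after 30 days (1.02% of all genes), the 1 being CLSPN. The median log2 ratios were 0.45 and 0.41 with DHT and 0.19 and 0.25 with vehicle. With vehicle 3 of the 45 were lower after 3 days and 2 after 30 days. TK1 was lower both times, with ratios of 0.932 and 0.915 (counting intervals 0.889 to 0.977 and 0.872 to 0.960). DBF4 had ratios of 0.998 and 0.833 (0.899 to 1.11 and 0.746 to 0.931). With DHT 44 were higher after 3 days and 45 after 30 days. Even so, 41 genes after 3 days and 42 after 30 days stood lower with doxycycline and DHT than with vehicle and no doxycycline.

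Whether the DHT effect differed with doxycycline was tested with an interaction term that joins 3 and 30 days. With 1 library per condition it leaves 1 residual degree of freedom, and edgeR's prior degrees of freedom were infinite, so its p-values rest on a spread taken from all genes and not on replicates. Of the 45 genes 5 were called as having a less negative or more positive DHT effect with doxycycline, while 1.09% of all genes tested were called in that direction and 0.312% in the other. These were DBF4 (difference 0.57 ± 0.14, adjusted p = 0.00443), TIMELESS (0.53 ± 0.11, 0.000279), TK1 (0.49 ± 0.09, 6.08e-05), RRM1 (0.38 ± 0.09, 0.00254) and FAM111B (0.34 ± 0.10, 0.034), with log2 differences ± SE and adjusted p from edgeR. TIMELESS stood at 50.6, 77.6 and 77.4 CPM with DHT after 0, 3 and 30 days, against 89.5, 98.00 and 91.5 CPM with vehicle. RRM1 stood at 177, 259 and 249 CPM with DHT, against 310.2, 339 and 347 CPM with vehicle. Both are thus lowest in the library with DHT and no doxycycline, which is not particular to them. With DHT, 44 of the 45 genes were higher after 3 days than without doxycycline and 45 after 30 days. Without doxycycline all 45 were lower with DHT than with vehicle. The median difference over the 45 was 0.23, with 41 positive, compared with 0.00 over all genes. DESeq2 called 0 of the 45, and 1 library per group leaves no fit with a library left out. Unadjusted p-values under 0.05 (edgeR) were found for 22 positive and 0 negative differences, against 1037 and 839 of all 17300 genes.

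GSK2879552 at 10 µM for 24 hours gave few calls over all genes in C4-2-tet-shRB cells and 0 among the 45. Without doxycycline 0.619% of all genes rose and 0.0597% fell, and 0 of the 45 were called, a number near that background. Unadjusted p-values under 0.05 (edgeR) were found for 11 negative and 0 positive differences, against 983 and 1233 of all 18423 genes. DESeq2 called 1 of the 45, CDT1. With doxycycline 1.24% of all genes rose and 0.0923% fell, and 0 of the 45 were called, again near the background. Such p-values were found for 6 negative and 1 positive difference, against 726 and 1249 of all 18423 genes, and DESeq2 called 0 of the 45. The median was -0.10 in each case, and 32 of the 45 values were negative both times. CDT1 had the lowest adjusted p without doxycycline, at 30.3 and 37.02 CPM with GSK2879552, against 49.2 and 42.3 CPM with DMSO (log2 -0.45 ± 0.10, 95% interval -0.67 to -0.23, adjusted p = 0.0579). TK1 had it with doxycycline, at 254 and 223 CPM with doxycycline and GSK2879552, against 286 and 282 CPM with doxycycline and DMSO (log2 -0.25 ± 0.08, interval -0.42 to -0.09, adjusted p = 0.17). In both cases the groups did not overlap, but these 2 genes were named for their lowest adjusted p, which favours such a gap. PCNA stood at 0.06 ± 0.08 (interval -0.10 to 0.23) and -0.03 ± 0.07 (interval -0.19 to 0.13). The pair given GSK2879552 alone differed most between replicates of all groups of that table (chi-square ratio 7.88, against 1.61 to 3.56). Leaving out either of its libraries raised the number of calls over all genes and, by falls alone, among the 45. Without its replicate 1 the log2 value without doxycycline was -0.43 for GINS1, -0.41 for POLA1 and -0.32 for RRM2. Without its replicate 2 that value was -0.60 for CDT1, -0.44 for ORC1 and -0.35 for TK1. With doxycycline CDT1, GINS2, TK1, CHAF1B and TIMELESS stood between -0.30 and -0.22 both times. These names were chosen after their values were seen.

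The difference of its effect with and without doxycycline was called for 0 of the 45 in edgeR and 0 in DESeq2, and for 0.0163% of all genes in either direction. Unadjusted p-values under 0.05 (edgeR) were found for 1 positive and 0 negative differences, against 464 and 415 of all 18423 genes. The median difference was 0.00, and its interval for PCNA was -0.32 to 0.13. Under GSK2879552 the doxycycline rise was present as well: 21 of the 45 rose and 0 fell with doxycycline and GSK2879552 against GSK2879552 alone, where 4.52% of all genes rose and 3.2% fell, with a median of 0.27. CDT1 (log2 0.74 ± 0.10, adjusted p = 0.000259) and CDC6 (log2 0.53 ± 0.08, adjusted p = 0.000425) had the smallest p, and these 2 were called whichever library was left out. Other called genes were RFC4 (0.35 ± 0.08), PRIM1 (0.57 ± 0.13), POLA1 (0.41 ± 0.10), FEN1 (0.27 ± 0.07), TYMS (0.38 ± 0.08), CLSPN (0.47 ± 0.11) and FAM111B (0.69 ± 0.14). The count was 5 and 3 without doxycycline and GSK2879552 replicate 1 and 2, and 7 from the 4 libraries alone.

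In LNCaP cells, which keep RB1, 1 µM GSK2879552 for 2 days was set against vehicle with 1 library each, so the values compare those libraries and have no replicate check; dose and time differ from those in C4-2-tet-shRB cells. RB1 stood at 33.2 CPM with the inhibitor and 26.4 CPM with vehicle, and E2F1 at 11.5 and 26.1 CPM. Of the 42 genes with at least 100 counts, 9 were lower by over 2-fold and 0 higher, compared with 1.43% of all such genes that were lower. The median log2 ratio was -0.50 over the 42 and -0.01 over all genes. Summed over all 45, the level was 981 CPM with the inhibitor and 1333 CPM with vehicle. RRM2 had 78 counts with GSK2879552 and 299 with vehicle, a scaled ratio of 0.275 (0.211 to 0.354) with the 95% interval for counting error in parentheses. CDC45 had 40 counts with GSK2879552 and 126 with vehicle, a ratio of 0.334 (0.228 to 0.481). TK1 had 294 counts with GSK2879552 and 841 with vehicle, a ratio of 0.368 (0.321 to 0.421). These were the 3 lowest ratios among the 42. TYMS, GINS1, CDC6, CDT1, POLA2 and GINS4 made up the 9, with ratios from 0.383 to 0.498. At the other end, RFC1 had 1235 counts with GSK2879552 and 1018 with vehicle, a ratio of 1.28 (1.18 to 1.39), the highest among the 42. CDC7, SLBP, POLA1 and POLE had ratios of 1.03, 1.06, 1.01 and 0.993. Subunits of 1 complex had unlike values, with ratios of 0.275 for RRM2 and 0.916 for RRM1, and of 0.504 for CHAF1A and 0.957 for CHAF1B. The share of mitochondrial protein-coding RNA was 0.220% with the inhibitor and 0.336% with vehicle, and its part in these ratios was not tested.

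**Figure D4:**
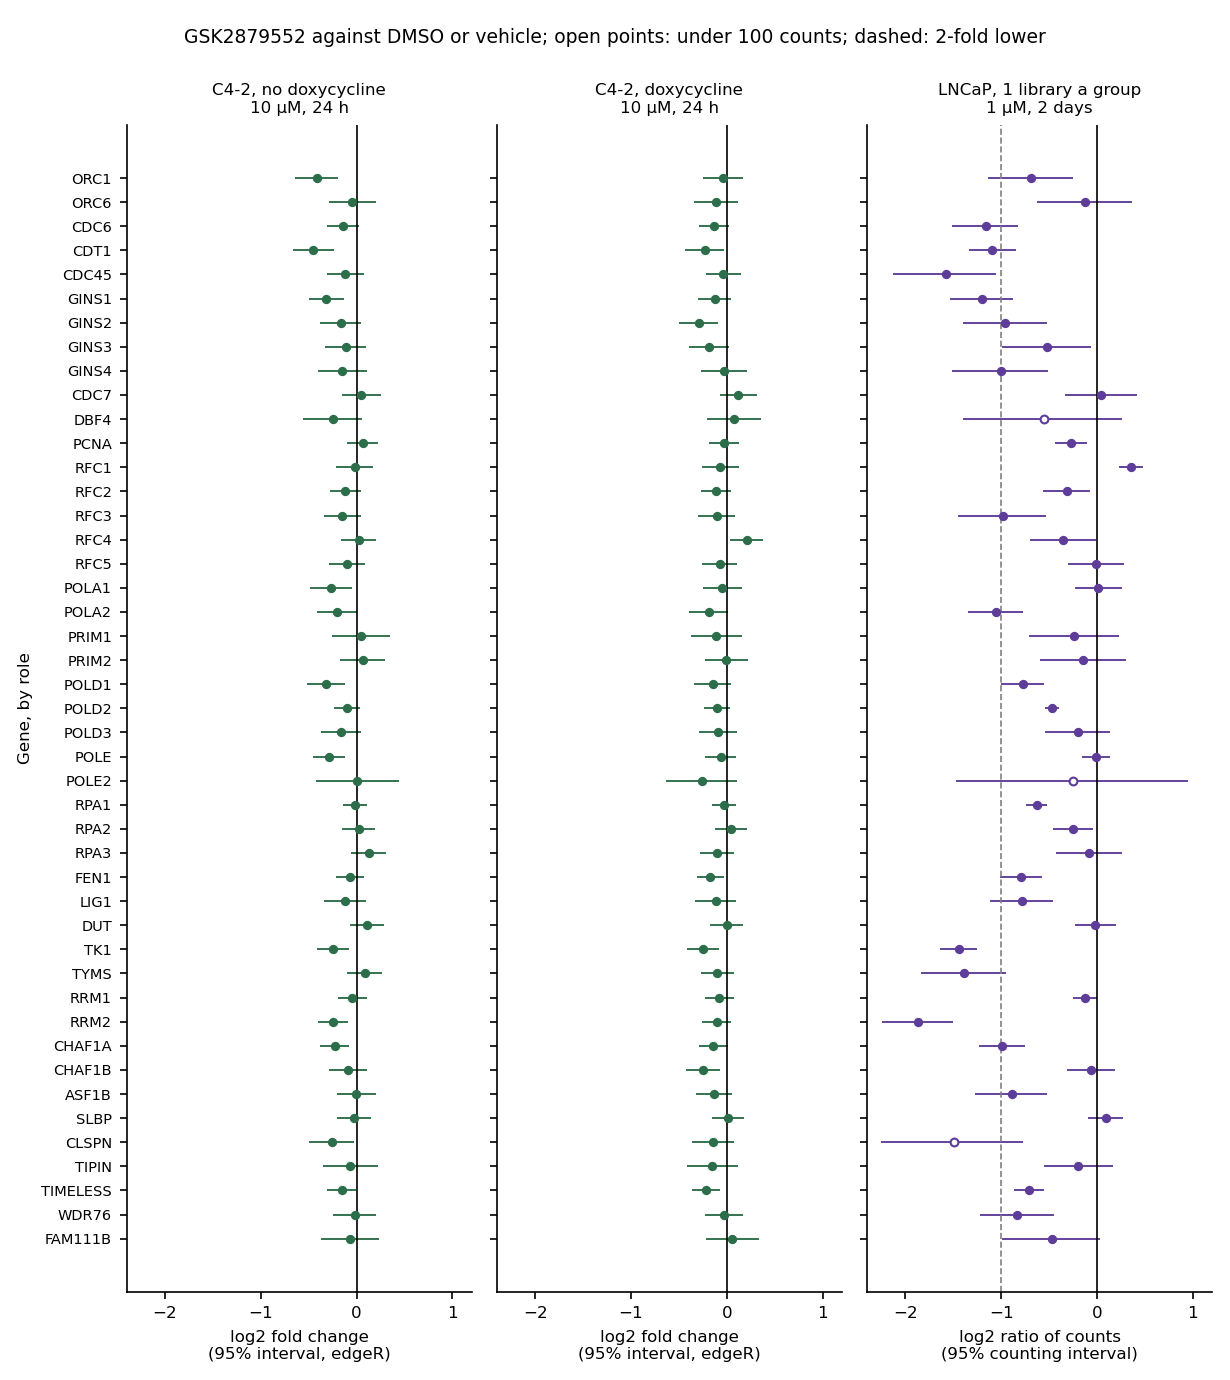
Effect of GSK2879552 on each of the 45 genes (rows, grouped by role): log2 fold change with its 95% interval in C4-2-tet-shRB cells without doxycycline (left) and with it (middle), and log2 ratio of 1 library to 1 with a counting interval in LNCaP cells (right). The green points lie close to 0, with no called gene, and 9 of the filled purple points lie left of the dashed line at 2-fold lower; open points had under 100 counts.

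A wider list of replication, nucleotide and fork genes outside the 45, of which 62 were tested in each fit, is given for scale. Of these 62, 10 rose and 0 fell in VCaP cells (2.96% and 2.65% of all genes), and 12 rose and 2 fell with doxycycline and DMSO (4.25% and 3.59% of all genes). After 3 and 30 days 3 and 19 rose (0.272% and 2.51% of all genes) and 0 fell. Examples are UNG, which removes uracil from DNA (log2 0.33 ± 0.05 in VCaP cells), CDK2, the S-phase kinase (0.63 ± 0.08 with doxycycline and DMSO), and the mismatch repair gene MSH6 (0.47 ± 0.07 after 30 days). With DHT 44 fell and 7 rose, where 22.8% of all genes fell and 24.3% rose. MCM10, which activates the helicase, fell by 1.12 ± 0.07 on the log2 scale, whereas ORC5, another origin recognition subunit, rose by 0.75 ± 0.07. POLD4, the small subunit of polymerase delta, rose with DHT by 0.99 ± 0.12 and fell with doxycycline and DMSO (-0.42 ± 0.10). With doxycycline and GSK2879552 against doxycycline and DMSO, 1 of the 62 rose, which is near the 1.24% of all genes that did; it was RRM2B, the p53-inducible reductase subunit (0.56 ± 0.12).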

How the data were processed

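RNA-seq was analysed for 22 libraries in 14 groups, from 30 columns of counts. Per the submitters' processing notes, FastQC 0.11.9, STAR 2.7.2 and featureCounts 1.6.4 were used with hg19 (GRCh37), and the strand setting and annotation are not given in the sources used here. Per the labels' protocols, stranded mRNA kits were used for VCaP cells and the GSK2879552 table, and stranded total RNA kits for the DHT and LNCaP tables. The deposited values are whole-number counts per gene, not normalized. In the DHT and LNCaP tables the columns labelled as replicates are sequencing lanes of 1 library, which differed by no more than sampling noise (chi-square ratio 0.983 to 1.01), so they were summed and counted as 1 sample. Counts were tested with edgeR 4.0.16 in R 4.3.3 (quasi-likelihood F test, TMM scaling, low-count filter by group, Benjamini-Hochberg adjustment over all genes tested). The 8 libraries with GSK2879552 entered 1 fit, and DHT and days of doxycycline were additive terms in the fit of 6 libraries. The SE is the log2 fold change over the square root of F. Single libraries were compared by scaled ratios with exact 95% Clopper-Pearson intervals, which cover counting error only, for genes whose 2 libraries held 100 counts or more. Alternatives were DESeq2 1.42.0, RLE scaling, other filters, a replicate block and leaving out each library. Some of the tests, and not each comparison, were also tried on simulated data. The outcome is not given here, and no result above rests on it.

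The 45 genes, the roles and the wider list were chosen with earlier results of these data known. The genes named were, per role, the called genes of smallest p, and further members are named to complete a complex. Promoters came from RefSeq on GRCh38.p14 and served for sequence alone.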

Additional observations from a re-analysis of the deposited data

Results flagged for a closer look

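The effect of DHT in C4-2-tet-shRB cells was called as differing with doxycycline for 5 of the 45 genes by an interaction term (edgeR's quasi-likelihood test, adjusted p under 0.05). The log2 change with DHT was higher with doxycycline than without it by 0.57 for DBF4, 0.53 for TIMELESS, 0.49 for TK1, 0.38 for RRM1 and 0.34 for FAM111B. DESeq2 called none of the 5, and lane 2 alone kept TK1 and RRM1 among them. With no low-count filter FAM111B was not called. Each of the 6 conditions is 1 library, which leaves 1 residual degree of freedom with infinite prior degrees of freedom, so the spread behind these calls comes from all genes and not from replicates.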

How the results depend on the processing

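No called gene changed direction under any alternative. The number of the 45 called with RB1 siRNA in VCaP cells was 8 by DESeq2 and 8 to 14 with a library left out. With doxycycline and DMSO it was 24 from the 4 libraries alone and 5 to 22 with a library left out. With doxycycline under GSK2879552 it was 7 from the 4 libraries alone, 3 to 27 with a library left out, and 28 with crossed replicate numbers as a block, an alternative chosen after seeing the data. GSK2879552 without doxycycline gave 1 call by DESeq2, 2 with no low-count filter and 0 to 7 with a library left out, and with doxycycline 1 with no filter, 6 from the 4 libraries alone and 0 to 5 with a library left out; all these calls were falls. After 3 days of doxycycline the number was 5 by DESeq2, 24 with no filter, 6 with a DHT by doxycycline term and 0 to 35 with a library left out. After 30 days it was 8 by DESeq2, 15 with that term and 12 to 35 with a library left out. Between 30 and 3 days it was 1 with that term and 0 to 1 with a library left out. With DHT it was 41 to 43 throughout. The difference of the DHT effect gave 0 calls by DESeq2 and 3 from lane 2 alone, and could not be fitted with a library left out. In LNCaP cells 20 genes passed a 1.5-fold limit and 5 passed 2-fold from lane 2 alone. In most of these fits the number of calls over all genes moved in the same direction, so the shifts were not particular to the 45. Over all genes DESeq2 gave 341 calls in VCaP cells, against 790 in the main fit. The 4 libraries alone gave 3540 with doxycycline and DMSO, against 1444, and the crossed block gave 3084 under GSK2879552, against 1422. The cause of these shifts was not tested. With the replicate number as a block, 14, 12 and 15 genes were called for RB1 siRNA and for doxycycline with DMSO and with GSK2879552, and 0 for GSK2879552 itself; same-numbered libraries did not deviate together (correlation 0.0103 to 0.0284 in VCaP cells and -0.125 to 0.0353 with GSK2879552), so the numbers were not taken to pair them. Where a group is left with 1 library, it is assumed to vary like the others.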
